A study of Arabidopsis thaliana with 6 samples.

Results

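BGLU25, BGLU33 and BGLU46 are 3 Arabidopsis thaliana genes of the BGLU beta-glucosidase family. They were selected by symbol, as the genes whose single-gene probe set carries that name in the array's annotation, where the brightest probe set stands for a gene. Each of the 3 had exactly 1 such probe set, a set of oligonucleotides read together as 1 transcript, so all 3 were measured, out of 13356 genes with a single-gene probe set. These genes were proposed with the difference between the genotypes already known, so their levels and differences are given as a description and no test is attached to them. The 19 other BGLU-named genes with a probe set of their own carry the tests.

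The samples were 3 of cdkf;1-2, a T-DNA insertion mutant of the cyclin-dependent kinase gene CDKF;1, and 3 of wild type, both in the Col-0 accession. All were whole seedlings aged 7 days, raised on solidified medium (0.5% sucrose) at 22 °C in days of 8 h light and 16 h darkness, and sampled 4 h after lights on. The mutant is represented by 1 allele, the labels give no number of seedlings per sample, and the description field of the mutant samples carries the words "mutant wild type". The labels call the samples biological replicates without saying whether they were grown separately. The p-values set the difference between genotypes against the spread among these samples, which may not include variation between separate growths. CDKF;1 activates other kinases of its family and the study's title names it as a Serine-7 kinase of the RNA polymerase II tail. It had 0 single-gene probe sets, so its transcript gives no check of the genotype labels.

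Beta-glucosidases of glycoside hydrolase family GH1 remove a terminal glucose from small molecules. Plants store many hormones, defence compounds and building blocks of the cell wall as inactive glucosides, made by UDP-glycosyltransferases, and a beta-glucosidase releases the active compound. In Arabidopsis the family includes BGLU46 and its close relative BGLU45, which act on the glucosides of monolignols, the precursors of lignin. BGLU33 is a vacuolar enzyme that frees abscisic acid from its glucose ester. PYK10 (BGLU23) is the abundant beta-glucosidase of the endoplasmic reticulum bodies of roots and hypocotyls.

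BGLU25 was high in the mutant, and BGLU33 and BGLU46 were low in it. Values below are deposited linear intensities after quantile normalization, which gives every array the same distribution of signals. A log2 difference is the mean of log2(signal + 16) in cdkf;1-2 minus that in wild type. The added 16 shrinks the log2 difference of dim transcripts more than that of bright ones. Fold changes are taken from that difference and so can differ from the ratio of the mean signals.

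BGLU46, the monolignol glucoside hydrolase, had normalized signals of 72.2, 74.7 and 72.0 in cdkf;1-2 replicates 1 to 3, against 239, 242 and 232 in wild type replicates 1 to 3. The lowest wild type sample was 3.10 times the highest mutant sample, so the groups lay far apart. The mean was 73.0 ± 1.5 in cdkf;1-2 and 238 ± 5.46 in wild type (SD, n = 3 each), a log2 difference of -1.51 (SE 0.11). On that scale its level was 2.85-fold lower in the mutant.

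BGLU33, the abscisic acid glucose ester hydrolase, had normalized signals of 60.4, 49.3 and 71.4 in cdkf;1-2, against 169, 170.0 and 143 in wild type. All mutant samples lay below all wild type samples, and the lowest wild type value was 2.00 times the highest mutant value. Its mean was 60.4 ± 11.04 in cdkf;1-2 and 161 ± 15.2 in wild type (SD, n = 3 each), a log2 difference of -1.22 (SE 0.15) or a level 2.32-fold lower in the mutant.

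BGLU25 ran the other way, with normalized signals of 491, 355 and 405 in cdkf;1-2, against 163, 181 and 147 in wild type. The lowest mutant sample was 1.96 times the highest wild type sample. The mean was 417 ± 69.0 in cdkf;1-2 and 164 ± 17.3 in wild type (SD, n = 3 each), which is a log2 difference of 1.26 (SE 0.16) or a level 2.40-fold higher in the mutant.

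**Figure D1:**
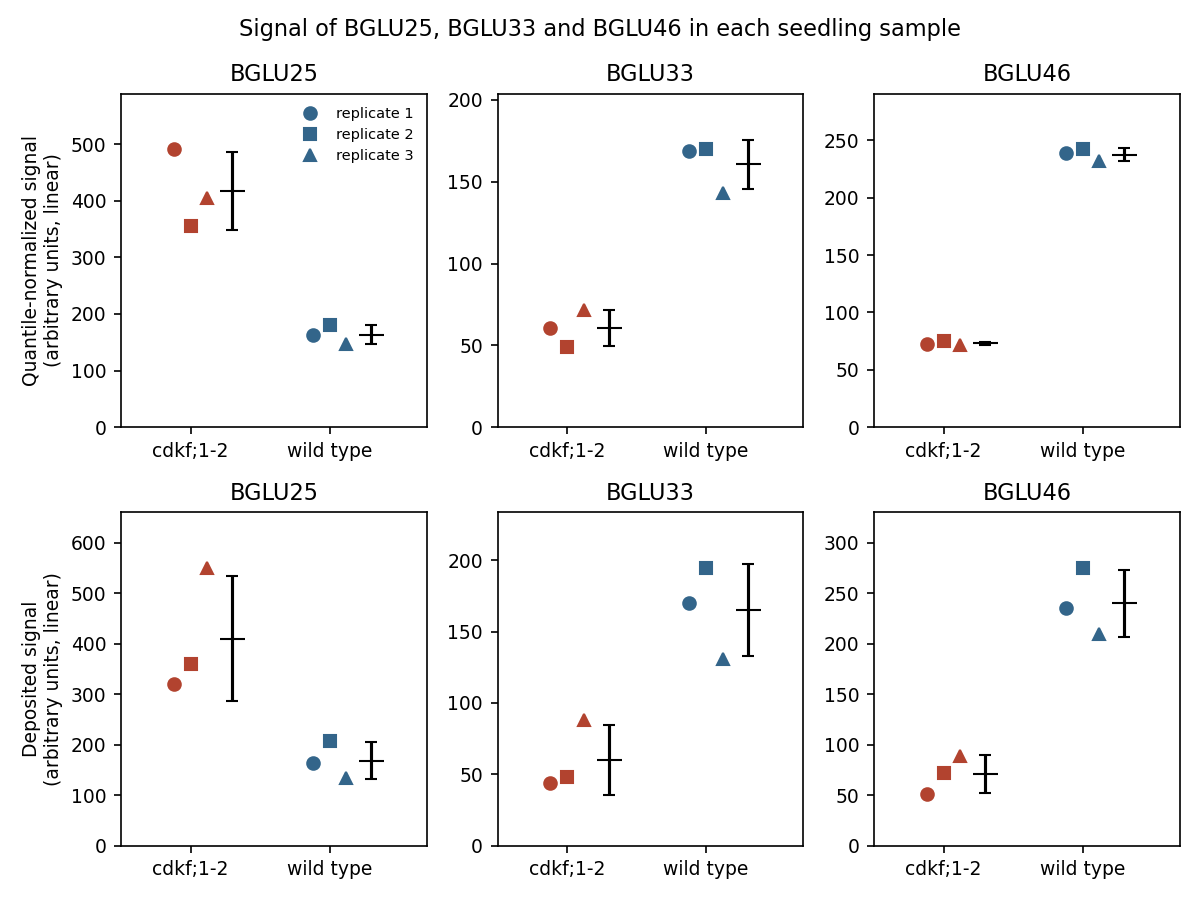
Signal of BGLU25, BGLU33 and BGLU46 (linear, arbitrary units) in each of the 3 cdkf;1-2 and 3 wild type samples, after quantile normalization in the upper row and as deposited in the lower row; black bars are the mean and SD of 3 samples. In both rows every cdkf;1-2 sample lies above every wild type sample for BGLU25 and below every wild type sample for BGLU33 and BGLU46, and normalization narrows the spread within each genotype.

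The same separation was present in the signals as deposited, before any scaling here. BGLU46 was at 51.6, 72.4 and 88.8 in cdkf;1-2, against 235, 275 and 210 in wild type. BGLU33 was at 44.0, 48.2 and 88.0 in cdkf;1-2, against 170 and 195 in wild type replicates 1 and 2 and 131 in wild type replicate 3. BGLU25 was at 320, 360 and 551 in cdkf;1-2, against 164, 207 and 134 in wild type. The order of the mutant samples in these deposited values, replicate 1 lowest and replicate 3 highest for all 3 genes, was also that of the arrays' median signals, which were 64.1, 89.1 and 114 in cdkf;1-2 replicates 1 to 3 and 93.8, 104 and 85.0 in wild type replicates 1 to 3.

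The 3 genes differed in how tightly the replicates repeated. The within-group SD of the log2 values, which does not use the difference between genotypes, was 0.028 for BGLU46, 0.17 for BGLU33 and 0.19 for BGLU25, against a median of 0.21 over all 22746 probe sets tested. Only 0.703% of probe sets had a smaller within-group SD than BGLU46. That tightness belongs to the normalized values: on the deposited values the SD was 0.26 for BGLU46, 0.36 for BGLU33 and 0.35 for BGLU25.

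Set among all measured transcripts, the 3 differences were large but not extreme. BGLU46 had the 47th largest fall and BGLU33 the 115th among the 13356 genes, and BGLU25 had the 190th largest rise. Of all probe sets, 1.34% had a larger absolute difference than BGLU46, 2.37% a larger one than BGLU25 and 2.60% a larger one than BGLU33. All 3 were among the probe sets with a limma adjusted p under 0.05, a threshold that 14.4% of all probe sets passed, 6.94% as higher in cdkf;1-2 and 7.42% as lower. On the deposited values, where 328 probe sets passed that threshold, BGLU46 did and BGLU25 and BGLU33 did not. The groups did not overlap for any of the 3, nor for 33.9% of all probe sets. Since the genes were proposed from this contrast, nothing is read from these counts.

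**Figure D2:**
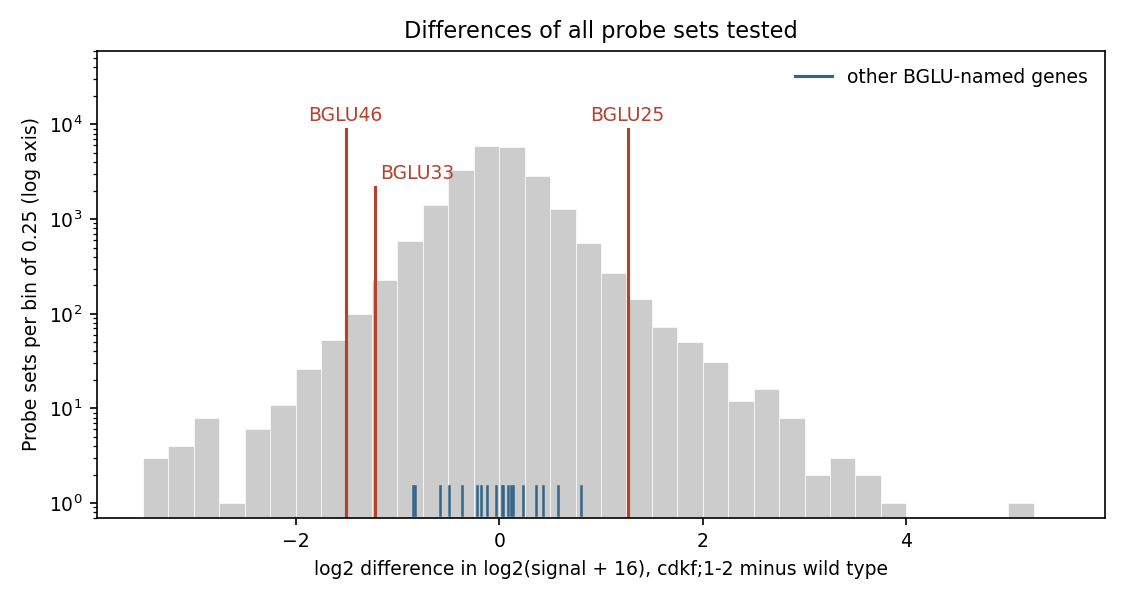
Number of probe sets (log axis) by log2 difference of log2(signal + 16), cdkf;1-2 minus wild type, in bins of 0.25, for all 22746 probe sets tested; red lines mark BGLU25 (1.26), BGLU33 (-1.22) and BGLU46 (-1.51), and short blue lines mark the 19 other BGLU-named genes. The 3 red lines stand outside the range of the blue ones, from -0.85 to 0.81, and the 3 genes were proposed with this contrast known. A probe set listed for 2 BGLU genes (-1.56) has no blue line.

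The RefSeq gene table (assembly TAIR10.1) holds 47 BGLU-named genes, of which 22 had a single-gene probe set, 20 by the array's symbol and 2, PYK10 and ATA27, by a synonym. Among the 19 outside the trio, BGLU31 rose, and BGLU15, BGLU19 and BGLU43 fell. The other 15 did not pass (limma, adjusted over all probe sets). Those 4 of 19 are 21.1%, set against 14.4% of all probe sets. At an unadjusted p under 0.05 (limma), 2 were higher and 4 lower, beside 3175 higher and 3546 lower among all 22746 probe sets. The median log2 difference of the 19 was 0.03, with 10 above 0 and 9 below, and over all probe sets it was -0.01. Many were dim, since 12 of the 19 stayed below a normalized signal of 50 in all 6 samples.

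BGLU15, a hydrolase of flavonol glycosides, had signals of 169.99, 145 and 142 in cdkf;1-2, against 207, 224 and 231 in wild type, so that the mean lay at -0.50 relative to wild type in log2 (SE 0.12, n = 3 per group, limma adjusted p = 0.0377). The groups did not overlap. The call held in 1 of the 6 fits that left out a sample, the one without cdkf;1-2 replicate 1, and the adjusted p reached 0.122 in the others. It also ended with median centring, hybridisation spikes and a pseudocount of 1, and held in 6 of 16 alternatives.

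BGLU43 had signals of 1.97, 1.95 and 0.627 in cdkf;1-2, against 12.9, 16.1 and 17.8 in wild type, and the log2 change was -0.85 (SE 0.12, limma adjusted p = 0.00489). BGLU19 had 1.88, 2.77 and 6.24 in cdkf;1-2, against 13.2, 15.6 and 29.6 in wild type, and fell by 0.83 (SE 0.19, limma adjusted p = 0.0298). BGLU31 rose by 0.81 (SE 0.15, limma adjusted p = 0.0127), with signals of 14.0, 19.1 and 9.51 in cdkf;1-2, against 2.26, 0.556 and 0.667 in wild type. In all 3 genes the lower group lay below the added 16, so the size of the change depends on that constant. The call of BGLU43 held in 6 of the 6 fits without a sample and ended with median centring (adjusted p = 0.0544). That of BGLU31 held in 5, ending without wild type replicate 2 (adjusted p = 0.0605). That of BGLU19 held, of the 6, only without wild type replicate 1, with adjusted p up to 0.0897 in the other 5, and it also ended with median centring, hybridisation spikes and a pseudocount of 64.

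**Figure D3:**
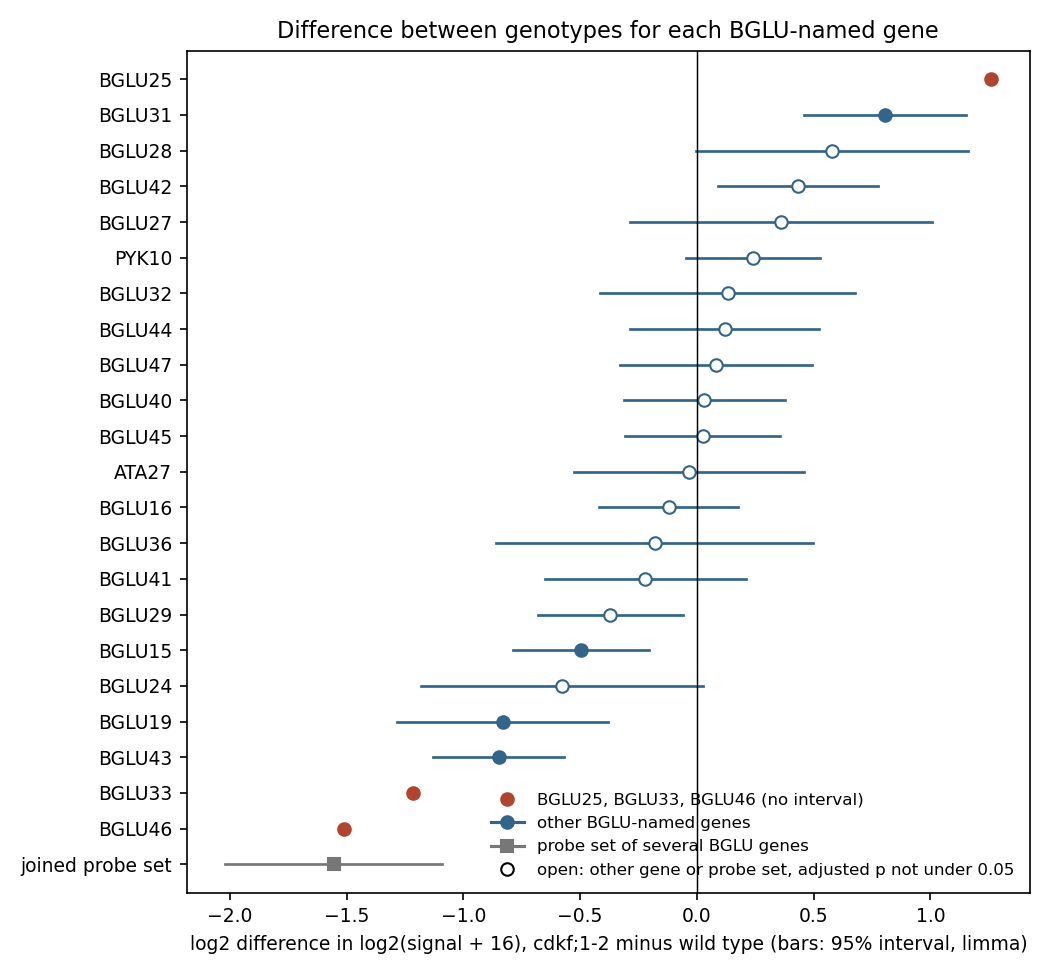
Log2 difference of log2(signal + 16), cdkf;1-2 minus wild type, for the 22 BGLU-named genes and the joined probe set, with limma's 95% interval as a bar except for BGLU25, BGLU33 and BGLU46, which are drawn in red as points only; blue marks the other genes, and open circles those with an adjusted p of 0.05 or more. BGLU25 lies at the top (1.26), BGLU33 (-1.22) and BGLU46 (-1.51) lie at the bottom with the joined probe set (-1.56), and the intervals of 13 of the 15 open circles cross 0.

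A further probe set is listed for 2 BGLU genes and is therefore assigned to neither. It gave signals of 813, 635 and 607 in cdkf;1-2, against 2485, 2118 and 1586 in wild type, with every mutant sample below every wild type sample. The log2 difference was -1.56 (SE 0.20, n = 3 per group, limma adjusted p = 0.00339), and it was called under all 16 other settings, with a difference between -1.74 and -1.12. The rule did not use this probe set.

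PYK10, BGLU42, BGLU44, BGLU16 and BGLU40 were among the 15 that did not pass. PYK10 had signals of 9594, 9051 and 8421 in cdkf;1-2, against 8015, 7928 and 7003 in wild type (log2 difference 0.24, SE 0.12, limma adjusted p = 0.249). The groups did not overlap after normalization and did overlap as deposited. With arrays scaled by their hybridisation spikes it was called higher (log2 0.65, limma adjusted p = 0.0451), a scaling that shifts the median of all probe sets to 0.18. BGLU42, a root enzyme linked to the release of coumarins, had 202, 206 and 212 in cdkf;1-2, against 165, 166 and 121 in wild type (log2 0.43, limma adjusted p = 0.0962). BGLU44, BGLU16 and BGLU40 had log2 differences of 0.12, -0.12 and 0.03, with 95% intervals from -0.29 to 0.52, from -0.42 to 0.18 and from -0.31 to 0.38. Among the dim genes, BGLU28, which breaks down glucosinolates when sulfur is short, had a difference of 0.58 that passed only without wild type replicate 1 (0.86, limma adjusted p = 0.0339).

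Some BGLU genes lie side by side on the chromosome. BGLU46 lies next to BGLU45 on chromosome 1 in the RefSeq table. BGLU45 had signals of 28.8, 36.5 and 32.5 in cdkf;1-2, against 26.8, 39.1 and 29.8 in wild type, and the groups overlapped. Its log2 difference was 0.03 (SE 0.14, 95% interval from -0.31 to 0.36), beside -1.51 for BGLU46. On the other side of BGLU46, AT1G61840 had signals of at most 4.96 in cdkf;1-2 and 20.02 in wild type and a difference of -0.57 (limma adjusted p = 0.109). BGLU33, on chromosome 2, adjoins AT2G32850, whose difference was 0.00 (SE 0.13). The genes beside BGLU25 on chromosome 3 had no single-gene probe set. In the other 5 adjacent pairs of measured BGLU genes, the differences were -0.50 and 0.58 for BGLU15 and BGLU28, 0.58 and -0.37 for BGLU28 and BGLU29, -0.85 and 0.12 for BGLU43 and BGLU44, 0.36 and -0.12 for BGLU27 and BGLU16, and 0.81 and 0.13 for BGLU31 and BGLU32.

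Genes of lignin precursors and their glucosides could be followed for part of the pathway. Of 30 names in the lignin and monolignol glucoside list, 7 were measured, of which 1 rose, 1 fell and 5 did not pass, beside 14.4% of all probe sets called (median log2 difference 0.39, against -0.01 over all probe sets). UGT72E1, which glucosylates the aldehydes of monolignols, had signals of 930, 637 and 863 in cdkf;1-2, against 488, 491 and 400 in wild type, and rose 1.72-fold (SE 0.17, log2 0.78, limma adjusted p = 0.0257). UGT72E3, of the same subfamily, had 7.20, 4.72 and 12.8 in cdkf;1-2, against 43.2, 31.9 and 16.9 in wild type, and fell by 0.92 (SE 0.23, limma adjusted p = 0.0406). Both were separated between genotypes. UGT72E2 was at 413, 283 and 335 in cdkf;1-2, against 254, 232 and 282 in wild type (log2 0.39, limma adjusted p = 0.162), and HCT, which acts before the monolignols form, had a difference of 0.44 (limma adjusted p = 0.107) and passed under 3 of the other scalings. CCR2, a cinnamoyl-CoA reductase, had signals of 11.8, 71.6 and 81.0 in cdkf;1-2, against 27.2, 35.0 and 9.18 in wild type, and the groups overlapped (log2 0.70, SE 0.49). Without cdkf;1-2 replicate 1, which stood below the other mutant samples, the CCR2 difference was 1.31 and was called higher. The glycosyltransferase gene GT72B1 (UGT72B1) had a difference of 0.37 (limma adjusted p = 0.127). For UGT72E1 the call ended with a pseudocount of 1, without any of wild type replicates 1 to 3 and without cdkf;1-2 replicate 3, and for UGT72E3 it held in 1 of the 6 such fits, the one without wild type replicate 3, and in 5 of 15 alternatives in all, ending also with hybridisation spikes and pseudocounts of 1 and 64.

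For abscisic acid, 2 of 19 listed names were measured, both of them glucosyltransferases that make the ester BGLU33 cleaves, and both rose, beside 6.94% of all probe sets. UGT71C5 had signals of 237, 255 and 254 in cdkf;1-2, against 143, 159 and 146 in wild type, a rise (log2 0.68, SE 0.11, limma adjusted p = 0.00913). UGT71B6 had 11.7, 21.6 and 32.4 in cdkf;1-2, against 3.01, 1.29 and 0.946 in wild type (log2 1.06, SE 0.21, limma adjusted p = 0.0153). Its wild type signals lie far below the added 16, and with 1 added in place of 16 the difference was 3.02. For UGT71B6 the call ended without wild type replicate 2, wild type replicate 3 or cdkf;1-2 replicate 2, while for UGT71C5 it held in all 6 such fits. BGLU33 itself was lower in the mutant, as given above, and the hormone was not measured.

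Of the myrosinase, endoplasmic reticulum body and glucosinolate breakdown list, 6 of 33 names were measured, with 1 that rose, 1 that fell and 4 that did not pass, beside 6.94% of all probe sets called higher and 7.42% called lower. JAL33, a jacalin-type lectin that associates with PYK10, rose 1.40-fold (log2 0.49, SE 0.11, limma adjusted p = 0.0282), with signals of 3127 to 3429 in cdkf;1-2, against 2272 to 2331 in wild type. This call was lost with a pseudocount of 1 and without any of wild type replicates 1 to 3 or cdkf;1-2 replicate 2 or 3. The gene that fell was BGLU19. NAI1, the transcription factor needed for endoplasmic reticulum bodies, and NAI2, a component of them, had differences of -0.04 and 0.25 with overlapping groups, and ATA27 (BGLU20) had -0.03.

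Of 12 names of coumarin synthesis and release 4 were measured, of which 1 rose and 1 fell, beside 14.4% of all probe sets called. AT3G13610, which the RefSeq table gives as F6'H1, the hydroxylase that opens the route to scopoletin, rose 2.14-fold (log2 1.1, SE 0.11, limma adjusted p = 0.00136), with 686, 663 and 681 in cdkf;1-2, against 297, 308 and 318 in wild type. UGT71C1 fell by 0.71 (SE 0.12, limma adjusted p = 0.00917), with 46.9, 49.7 and 42.9 in cdkf;1-2, against 93.2, 79.4 and 86.1 in wild type. Both held in all 6 fits without a sample, and UGT71C1 was lost with hybridisation spikes. On the deposited values, none of the calls reported here for the other BGLU-named genes, these lists or the markers held, and the probe set listed for 2 BGLU genes was called. BGLU42 and PYK10, the other measured genes of the list, did not pass. BGAL16, the only measured gene of the beta-galactosidase family, which removes galactose in place of glucose, had a difference of -0.03 (95% interval from -0.31 to 0.25), and 0 beta-xylosidase genes were measured.

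Profiles closest to those of the trio were sought among all 13356 genes, by the root mean square difference between centred log2 profiles over the 6 samples. Since the genotype difference is part of each profile, small distances and like differences follow from the search and are given as description. The closest to BGLU46 were AT1G66540, AT1G29700 and AT1G64590, at 0.079, 0.083 and 0.089, against a median of 0.78 over all genes. Their log2 differences were -1.60, -1.39 and -1.49. The closest to BGLU33 were AT4G11570, AT5G02540 and AT5G56140, at 0.10, 0.11 and 0.13 (median 0.65), with differences of -1.32, -1.27 and -1.30. The closest to BGLU25 were AT1G64500, AT5G17760 and AT1G68440, at 0.082, 0.083 and 0.087 (median 0.68), with differences of 1.32, 1.17 and 1.33. None of the 9 is a BGLU gene, but besides the trio only 19 of the 13356 genes searched carry a BGLU name, so nothing is read from that.

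Whole seedlings mix organs and cell types, so fewer cells of a type and less RNA per cell cannot be told apart. The measured root hair markers, 2 of 6, were lower in cdkf;1-2, with summed signals of 56.2 to 126 in cdkf;1-2 against 210 to 225 in wild type. EXPA18 fell by 0.73 in log2 (SE 0.17, limma adjusted p = 0.0280), and EXPA7 did not pass (log2 -1.42, SE 0.41, limma adjusted p = 0.0620), though it passed in 7 of 16 alternatives. The EXPA18 call was lost with hybridisation spikes, a pseudocount of 1, and without any of wild type replicates 1 to 3 and without cdkf;1-2 replicate 3. The measured mesophyll markers, 4 of 8, had summed signals after normalization of 28211 to 29360.4 in cdkf;1-2 against 33580.4 to 34551 in wild type. As deposited, the groups overlapped for each of the 4 genes. Of these PSAN fell by 0.59 in log2 (SE 0.12, limma adjusted p = 0.0179), and RCA, LHCB4.1 and LHCB4.2 did not pass. Across the alternatives the difference ranged from -0.27 to 0.14 for RCA, from -0.23 to 0.17 for LHCB4.1 and from -0.32 to 0.19 for LHCB4.2. The PSAN call was lost under all 4 other scalings and without wild type replicate 2, wild type replicate 3 or cdkf;1-2 replicate 3. Of the myrosin cell markers 1 of 3 was measured, FMA (FAMA), with a difference of -0.25 (SE 0.20), and the lists for xylem, phloem, root endodermis and seed had 0 measured genes. The 25S ribosomal RNA control was at 9806, 8647 and 7343 in cdkf;1-2, against 5139, 5526 and 4719 in wild type. Ratios of 3' to 5' control signals, which follow RNA integrity and labelling, separated the genotypes in 5 of 6 cases, 2 higher and 3 lower in cdkf;1-2. The part of these cell types and controls in the differences of BGLU25, BGLU33 and BGLU46 was not tested.

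The directions of the trio were the same under all 14 alternatives run on them. These alternatives reuse the same arrays, the groups did not overlap and the genes were proposed from this contrast. A reversal was therefore hardly possible, and the ranges are given as description. The log2 difference of BGLU46 ranged from -1.69 to -1.14, that of BGLU33 from -1.41 to -0.85, and that of BGLU25 from 1.07 to 1.5. Leaving out a sample gave -1.54 to -1.47 for BGLU46, -1.30 to -1.11 for BGLU33 and 1.15 to 1.35 for BGLU25. On the deposited values the differences were -1.57 (SE 0.23) for BGLU46, -1.28 (SE 0.27) for BGLU33 and 1.19 (SE 0.27) for BGLU25. There, BGLU46 had a limma adjusted p under 0.05 and BGLU25 and BGLU33 did not. Since the genes were proposed from this contrast, nothing is read from that.

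**Figure D4:**
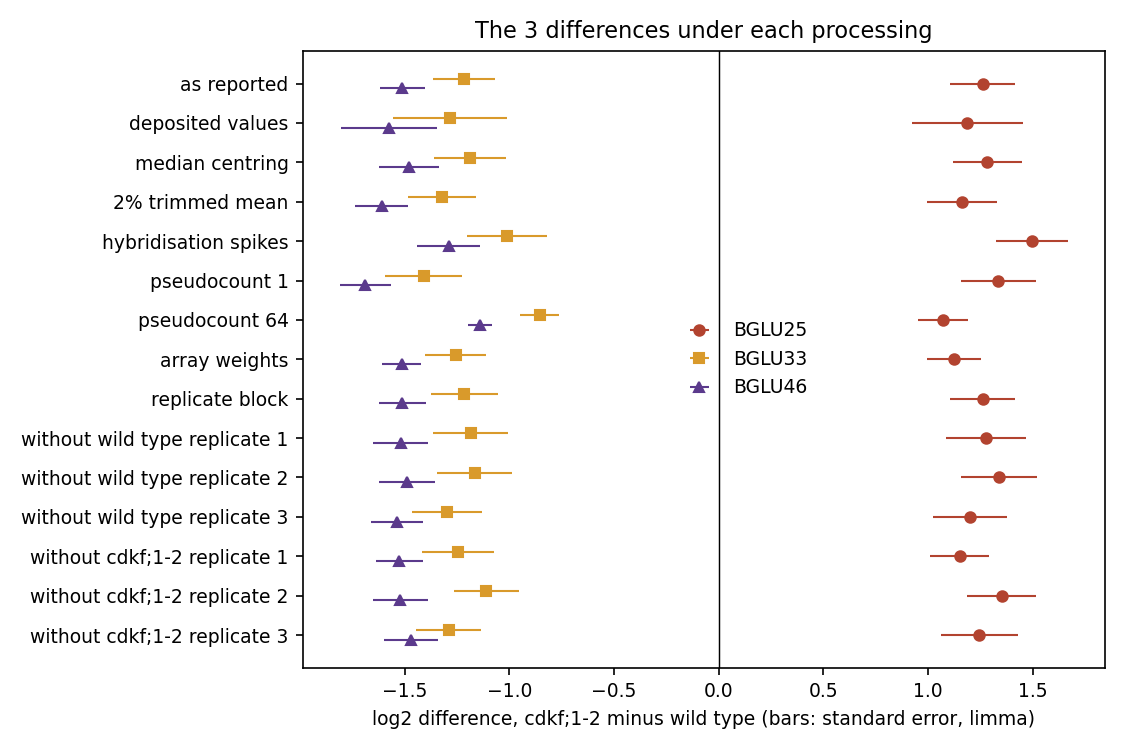
Log2 difference, cdkf;1-2 minus wild type, of BGLU25 (circles), BGLU33 (squares) and BGLU46 (triangles) as reported and under 14 alternatives, with limma's standard error as bars. BGLU25 stays between 1.07 and 1.5, BGLU33 between -1.41 and -0.85 and BGLU46 between -1.69 and -1.14, and a pseudocount of 64 draws all 3 toward 0.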

How the data were processed

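For each of 22810 probe sets the authors deposited a linear intensity in every sample. Per the submitters' processing notes GCOS was used, and the sources used here give no version, setting or scaling. Because array medians differed, quantile normalization was applied to the whole array, followed by log2(signal + 16). After removal of 64 control probe sets, 22746 entered limma 3.58.1 under R 4.3.3 (lmFit and eBayes, genotype only, 4 residual degrees of freedom, two-sided, Benjamini-Hochberg over all probe sets, threshold 0.05, no filter on dim ones). Alternatives changed the scaling, the pseudocount, the filter, the prior variance, array weights, the replicate block or the samples used. The fit was also tested on simulated data. The number of arrays limits the precision.

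Gene names came from the annotation of the array and were updated through RefSeq (TAIR10.1) for 13436 of 13513 single-gene probe sets, while 503 listed for several genes and 8730 not listed were left unnamed. With no stated genome build, no coordinates are printed. No sequence is shown, and whether transcripts of related BGLU genes also bind these probe sets was not tested. The text names the trio, the other BGLU-named genes it describes, up to 4 called members of each list with members that did not pass, and the 3 closest profiles per gene. AT1G61840, AT2G32850 and the joined probe set were added after their values were seen. The members, lists and the choice of quantile normalization were made with earlier results of these data known. Same-numbered samples did not deviate together in every pair (r = 0.30, 0.01 and 0.15 across probe sets). Samples of different numbers had r from -0.24 to 0.15. Replicate numbers were not treated as pairs in the main fit, and the replicate block was run as an alternative.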

Additional observations from a re-analysis of the deposited data

How the results depend on the processing

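BGLU25, BGLU33 and BGLU46 had the same direction in all 14 alternatives, which could hardly reverse it, since they reuse arrays on which the groups did not overlap. Each shift was set against the gene's own within-group SD, 0.028 for BGLU46, 0.17 for BGLU33 and 0.19 for BGLU25. Much smaller shifts therefore count as moved for BGLU46. For BGLU46 the difference moved by more than that SD on the deposited values (-1.57), with median centring (-1.48), a trimmed mean (-1.61), hybridisation spikes (-1.29), pseudocounts of 1 (-1.69) and 64 (-1.14), and without cdkf;1-2 replicate 3 (-1.47). The other 5 fits without a sample moved it by less, and all 6 lay between -1.54 and -1.47. For BGLU33 it moved with hybridisation spikes (-1.01) and pseudocounts of 1 (-1.41) and 64 (-0.85), and for BGLU25 with hybridisation spikes (1.5) and a pseudocount of 64 (1.07). The spike scaling was added after seeing the data.

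Of the other 19 BGLU-named genes 4 were called (limma), against 0 on the deposited values, 1 with median centring and 1 to 4 without a sample. Without the 40% dimmest probe sets, 1 of the 6 still tested was called, beside 3618 of all 13647 probe sets left. With the replicate block 3 of the 19 were called, BGLU15 being lost (limma adjusted p = 0.0635), and of the calls in the pathway lists UGT72E3 was lost. Over all 22746 probe sets, 328 were called on deposited values, 2505 with median centring and 2122 with a pseudocount of 1. Array weights gave 5612, the replicate block 3382 and leaving out a sample 1496 to 4107, against 3267 as reported. Calls higher in cdkf;1-2 made up 48.3% as reported, 58.8% with median centring and 80.4% with hybridisation spikes, where the median of the 19 genes was 0.21 beside 0.18 over all probe sets. The cause of these changes was not tested. Averaging a gene's probe sets was not run, since no BGLU gene had more than 1.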
